A study of Mus musculus with 16 samples.

Results

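The hepatic drug and bile transporters described here are the genes of 7 transporter families whose array name begins with Slco, Slc10a, Slc22a, Abca, Abcb, Abcc or Abcg and a number. They were taken by name alone, so that 78 of the 28786 gene names on the array were members, with 127 probes between them. Where a gene had several probes, the one with the brightest liver signal stood for it. The families held 15 Slco, 5 Slc10a, 17 Slc22a, 15 Abca, 10 Abcb, 10 Abcc and 6 Abcg genes. Testing required that the liver signal of that probe stood well above background on 3 or more of the 16 arrays, which 55 members met, and 50 of these did so on all 16. Of all 28786 gene names 19360 met the same limit, a share close to that of the members. Liver signal was above background on no array for 22 members, so the set chosen by name also holds genes not detected in this liver.

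The arrays compared livers of mouse offspring whose dams had breathed UV-Titan, a surface-coated titanium dioxide of nanometre size, with livers of offspring whose dams had breathed clean filtered air. All dams were time-mated, nulliparous C57BL/6BomTac mice, and UV-Titan was given at about 42 mg/m3 to the whole body for 1 hour a day from gestation day 8 to 18. The groups were female UV-Titan (5 animals), female control (3), male UV-Titan (4) and male control (4), with 1 array for each animal and no allele introduced in any of them. The study killed offspring as newborns on postnatal day 2 and at weaning on postnatal days 23 to 24, and the labels do not say which age these livers had or which animals were litter mates. P-values therefore measure the spread between these animals, some of which may share a dam. Liver RNA was hybridised in the red channel beside a commercial universal mouse reference RNA in the green channel, the same pool on every array. A value called the ratio is log2 of liver over reference, and a value called the liver channel or the reference channel is the log2 signal of that channel alone.

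The label fields and the labelling protocol named opposite dyes for liver, and the signals put liver in red. The median ratio of hepatocyte markers lay between 4.5 and 5.74 on the 16 arrays. Xist, the RNA of the inactive X chromosome, had ratios of -6.10 to -4.78 in males and 1.68 to 2.07 in females. Between 57.7% and 67.1% of the liver spots and between 62.7% and 69.8% of reference spots were well above background. Both lowest shares were those of female control replicate 35. It also had the lowest of the array weights fitted as an alternative, 0.421, with female control replicate 25 next at 0.594. Precision is limited by how few arrays there are.

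Hepatocytes take bile salts and drugs from blood through the sinusoidal membrane and pump them into the bile canaliculus on the opposite side. Solute carriers of the SLC10, SLC22 and SLCO families do most of the uptake, and ATP-binding cassette pumps of the ABCB, ABCC and ABCG groups do most of the export. Several of these genes are switched on in hepatocytes by nuclear receptors and by hepatocyte nuclear factors, and many reach full activity only after birth.

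The sequences below belong to the members whose values stand out in these livers. The first is the stretch between the start sites of Abcg5 and Abcg8, which lie head to head and whose liver channel signals moved together between animals. It runs over chr17:84683012-84683120 on the plus strand of GRCm38.p6, is 109 bases long and has 45.9% G and C. The next pair gives the 100 bases before the start site of the 2 members with the highest ratios. Abcb11 is at chr2:69342617-69342716 on the minus strand and Slco1b2 at chr6:141629418-141629517 on the plus strand of the same build. Capitals mark matches to the element bound by the bile acid receptor (AGGTCA and TGACCT with any 1 base between), with 1 base different, and in Slco1b2 also a match to the HNF1 element (GTTAAT and ATTAA with any 1 base between), with 2 bases different. These 3 sequences are from RefSeq. The last pair gives 2 of the 3 array probes of Abcb1b, which gave different answers. The brightest lies at chr5:8899085-8899144 and the second within chr5:8865089-8865351, both on the plus strand of mm7.
Abcg5-Abcg8: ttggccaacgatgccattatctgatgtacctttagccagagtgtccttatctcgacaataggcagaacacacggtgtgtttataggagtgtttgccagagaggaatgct
Abcb11: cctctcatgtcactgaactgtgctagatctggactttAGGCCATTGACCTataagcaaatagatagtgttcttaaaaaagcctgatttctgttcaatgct
Slco1b2: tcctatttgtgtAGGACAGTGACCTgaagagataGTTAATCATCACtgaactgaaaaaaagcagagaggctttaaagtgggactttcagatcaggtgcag
Abcb1b brightest probe: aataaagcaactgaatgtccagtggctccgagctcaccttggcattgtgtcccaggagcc
Abcb1b second probe: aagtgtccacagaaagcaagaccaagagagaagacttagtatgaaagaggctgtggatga

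Both strands of the 250 bases before each start site were searched, allowing 2 bases different. A member with several such windows was counted when any of them held a match, while the shares of all windows count single windows. Slc10a1 had 2 windows and Abcg2 had 3. The HNF1 element was found before 3 of the 16 members with a window and a ratio above 1 on all arrays, namely Slco1b2, Slc10a1 and Abcc2, and in 5.34% of all 32851 windows. It was also found before 2 of 21 members with no liver signal, Slco1a1 and Slc10a2, in Slc10a2 with 0 bases different. The element of the bile acid receptor was found before 2 of those 16, Abcb11 and Slco1b2, before 0 of those 21 and in 0.959% of all windows. Because this element reads the same on either strand apart from its middle base, each match was counted once per window. A direct repeat bound by HNF4 (AGGTCA and AGGTCA with any 1 base between) was found before 0 of the 16, before 2 of those 21 and in 3.24% of all windows. The element of liver receptor homologue 1, CAAGGTCA, was searched with no base different and was found before 1 of the 16, Abcg2, before 1 of those 21 and in 1.33% of all windows.

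Liver stood far above the reference for the classical bile transporters. The ratio was above 1 on all 16 arrays for 20 of the 55 tested members, against 10.5% of all 19360 tested genes. Without Abcb1b, whose probes disagreed in direction, the count was 19. It was below -1 on all arrays for 2 members, Abcc1 and Slco4a1, against 5.23% of all tested genes, and would be for 3 with the third Abcb1b probe. The median ratio was 0.70 over the tested members and 0.07 over all tested genes. By family the median was highest for Slc10a (2.35, 2 tested), Abcg (2.02, 6 tested) and Abcb (1.83, 9 tested), and lower for Abca (1.35, 9 tested), Slco (0.50, 8 tested), Slc22a (0.15, 13 tested) and Abcc (0.10, 8 tested). The reference is 1 pool of RNA from many tissues, so these ratios carry no test.

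**Figure D1:**
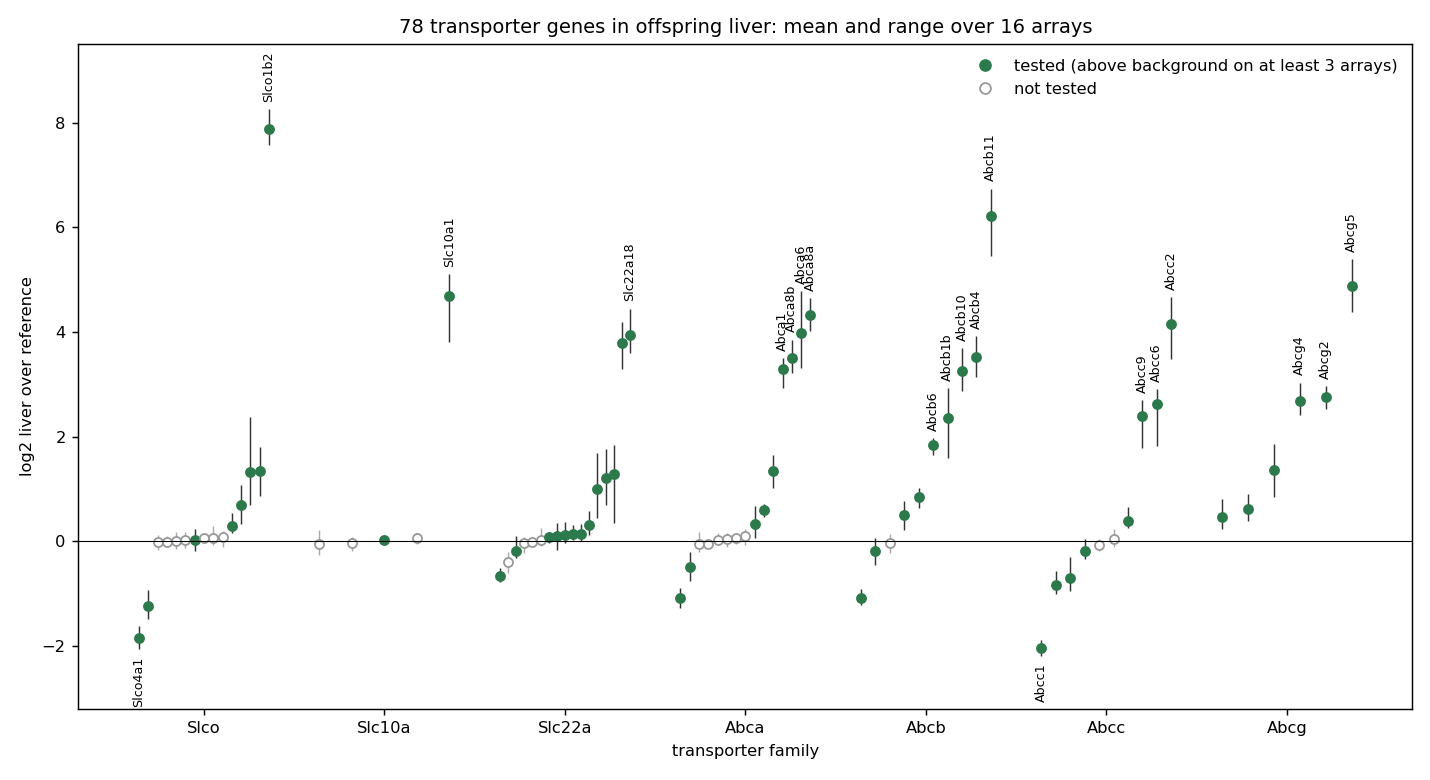
The vertical axis gives log2 liver over reference and the horizontal axis the 7 transporter families, with each point a gene's mean and each line its range over 16 arrays. Filled points are the 55 tested members, open points the 23 not tested, and 20 filled points have their whole range above 1, led by Slco1b2 at 7.87 and Abcb11 at 6.21.

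The sinusoidal uptake carriers held both the highest ratio and 1 member with no liver signal. Slco1b2, which brings bilirubin, bile salts and many drugs into hepatocytes, had a mean ratio of 7.87 (7.57 to 8.25 over 16 arrays), equal to 234-fold more signal in liver. Slc10a1, the sodium-dependent bile salt carrier NTCP, had a mean ratio of 4.69 (3.81 to 5.11). Slc22a7, the organic anion carrier OAT2, had 1.28 (0.35 to 1.85), and its reference signal was above background on 3 arrays. Slco2b1, an organic anion carrier found in several tissues, had liver signal on all arrays and reference signal on none, at least 2.49-fold more in liver. Slco1a4, known in adult mice from liver and brain vessels, had a ratio of 0.30 and liver signal above background on 15 arrays. Slco1a1, a carrier that is abundant in adult male mouse liver, was not well above background in either channel on any array.

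All 8 canalicular export pumps listed were tested, and 6 of them had ratios above 1 on every array, or 5 without Abcb1b, whose probes disagreed. Abcb11, the bile salt export pump, had a mean ratio of 6.21 (5.46 to 6.74), a 73.8-fold excess over the reference. Abcg5, which with Abcg8 forms the pump for cholesterol and plant sterols, had 4.88 (4.38 to 5.38). Abcc2, the exporter of bilirubin glucuronides, had 4.16 (3.48 to 4.67). Abcb4, which moves phosphatidylcholine into bile, had 3.53 (3.13 to 3.91). Abcg2, an exporter of urate and many drugs, varied less, with 2.75 (2.53 to 2.96). Abcg8 had liver signal on all arrays and reference signal on none, at least 2.54-fold more in liver. Abcb1a, a drug-exporting P-glycoprotein, had 0.50, with reference signal above background on 2 arrays.

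Abcb1b, the other P-glycoprotein gene of the mouse, was measured by 3 probes that disagreed. The brightest, printed above, had a ratio of 2.36. The second printed probe had -0.59 and was above background in liver on no array, and the third, at chr5:8903569-8903628 of mm7, had -2.10. The direction of Abcb1b between liver and reference is therefore uncertain, and every Abcb1b value below is that of the brightest probe. Whether that probe also binds transcripts of its relatives Abcb4 and Abcb1a was not tested. The displayed pair of Abcb1b probes share no stretch longer than 7 bases.

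Export pumps of the blood side had lower ratios, apart from Abcc6 and Abca1. Abca1, which loads cholesterol onto apolipoprotein A-I, had a mean ratio of 3.28 (2.92 to 3.50). Abcc6, whose loss in humans causes the calcification disorder pseudoxanthoma elasticum, had 2.62 (1.83 to 2.91). Abcc3 and Abcc4, exporters of bile salts and conjugates back to blood, had 0.39 and -0.84. Slc22a3, an organic cation carrier, was not above background in either channel on any array. Among carnitine carriers, Slc22a4 had 1.22 and Slc22a5 had -0.18.

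The 4 members listed for mitochondria and haem were above background on all arrays. Abcb10, a mitochondrial inner membrane transporter needed by red cell precursors, had a mean ratio of 3.26 (2.88 to 3.69), and its second probe had 2.96. Abcb6, linked to porphyrin transport, had 1.83. Abcb8, also of the mitochondrial inner membrane, had -0.19. Red cell precursor markers, 6 of 6 tested, had mean ratios between 3.42 and 4.14 on the 16 arrays, and their part in the Abcb10 ratio was not tested. In bulk liver RNA, fewer cells of a type and less RNA per cell cannot be told apart.

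Of 12 members known mainly from other organs, 7 had no liver signal above background on any array. These were Slc10a2 of the ileum, Slc22a2 of the kidney, Slco1c1 of brain vessels, Slco6b1, Slco6c1 and Slco6d1 of the testis and Abca4 of the retina. The other 5 were tested, with mean ratios of 0.99 for Slc22a8, 0.62 for Abcg3, 0.59 for Abca3, 0.31 for Slc22a12 and 0.15 for Slc22a6. Slc22a8, a renal organic anion carrier, rests on 1 of 3 probes, since the other 2 were above background on no array in either channel. Kidney markers were mostly undetected, with 1 of 5 tested.

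By the brightest probe of each gene, the 4 lowest ratios were those of Abcc1, Slco4a1, Slco3a1 and Abca2, while the third Abcb1b probe, at -2.10, lay below all 4. Abcc1, a widespread exporter of glutathione conjugates, had -2.04 (-2.19 to -1.89), and Slco4a1, a carrier of thyroid hormones and other organic anions, had -1.84 (-2.06 to -1.63). Slco3a1 had -1.23, and Abca2, abundant in myelinating cells, had -1.09. Slc22a20 had reference signal on all arrays and liver signal on none, at least 1.25-fold more in the reference.

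Several members sit side by side in the genome. In the chromosome 6 group, Slco1b2 at 7.87 had Slco1a4 (0.30) and Slco1a5 (0.02) beside it, while Slco1c1, Slco1a1 and Slco1a6 were above background in neither channel, so that their ratios carry no information. The chromosome 11 group of Abca genes ran from Abca8b (3.49) and Abca8a (4.32) through Abca9 (1.35) and Abca6 (3.99) to Abca5 (-0.50). Abca8a, Abca8b, Abca9 and Abca6 belong to a subgroup whose substrates are little known.

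Of the 13 pairs of neighbouring tested members, 2 moved together from animal to animal in the liver channel. How often genes far apart in the genome do so in this channel was not tested, so the values say nothing about neighbourhood itself. Abcb1b (brightest probe) and Abcb4 had r = 0.943 over 16 animals (rho = 0.957; permutation p = 2e-05 for each, the smallest that 100000 resamples can give; adjusted p = 0.00013 and 0.00026 over 13 pairs), and r = 0.921 without the 2 animals farthest from the median. Abcg5 and Abcg8 had r = 0.875 (rho = 0.81; permutation p = 2e-05 and 0.00028; adjusted p = 0.00013 and 0.00182), and r = 0.738 without the 2 animals farthest from the median. With group means removed the values were 0.932 for Abcb1b and 0.829 for Abcg5. A slide held only 3 or 4 arrays, too few for a value of its own, and with slide means removed r was 0.932 for Abcb1b and 0.922 for Abcg5. By ratio, r was 0.49 for Abcb1b and Abcb4 and 0.499 for Abcg5 and Abcg8, so that their joint movement was seen in the liver channel and less by ratio. Over the 13 pairs r by ratio ran from -0.765 (Abcc6 and Abcc8) to 0.775 (Abca9 and Abca6), without a test. In the liver channel the other 11 pairs did not pass, with adjusted p for r from 0.0873 (Abca9 and Abca6, r = 0.574) to 0.868 (Slc22a5 and Slc22a21, r = -0.0429).

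The probes of Abcb1b separated here as well. Against Abcb4, the second probe had r = 0.199 (rho = 0.194; permutation p = 0.467 and 0.464) and the third had r = -0.235 (rho = -0.244; permutation p = 0.377 and 0.358). Abcb1a had r = -0.0805 (rho = -0.0972; permutation p = 0.764 and 0.719). Over these 4 relations with Abcb4 the adjusted p was 8e-05 for the brightest Abcb1b probe and 0.623 to 0.764 for the others.

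**Figure D2:**
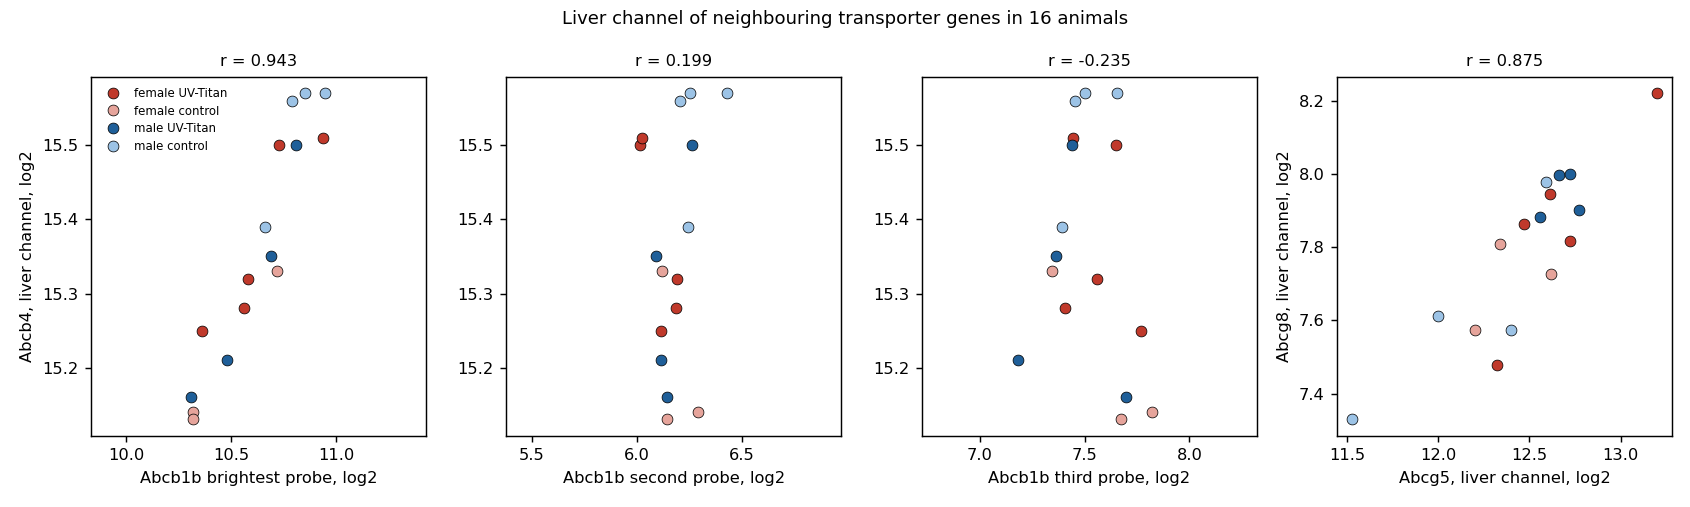
Each point is 1 of 16 animals and both axes give log2 signal of the liver channel. The left 3 panels set Abcb4 against each of 3 Abcb1b probes (r = 0.943, 0.199 and -0.235), and the right panel sets Abcg8 against Abcg5 (r = 0.875).

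No member passed the test for UV-Titan in either sex. With limma and Benjamini-Hochberg adjustment over all 19360 tested genes, 0 of 55 members had an adjusted p below 0.05 in females, in males, over both sexes or for the difference between the sexes, and the same held for 0% of all tested genes in each of these comparisons. The smallest adjusted p of a member was 0.694 in females, 0.951 in males, 0.418 over both sexes and 0.98 for the difference. In the liver channel alone the adjusted count was also 0, and it was 0 in all 31 other settings and subsets of arrays. These include the reference channel alone, which holds no offspring liver and so cannot speak to UV-Titan in liver. The counts at an unadjusted p below 0.05, given below, are descriptions.

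In females, 4 members had an unadjusted p below 0.05 by ratio, against 6.68% of all tested genes. In the liver channel alone there were 2, Abcc5 and Abca7, against 3.11%. The UV-Titan mean lay above the control mean by ratio for 44 of 55 members, against 58.5% of all tested genes, and in the liver channel for 35 members, against 49.7%. By ratio the count was 35 with Agilent processed signals and 52 with median centring, which moved the median of all tested genes to 0.27 and left 36 members above that median. The median difference of the members was 0.11 by ratio and 0.04 in the liver channel, and that of all tested genes was 0.02 and -0.0012. Without female control replicate 25 the ratio median of the members was 0.058, with 37 members positive. All 8 canalicular exporters had a positive difference by ratio (median 0.25), and 5 of 8 in the liver channel (median 0.16). Among the sinusoidal uptake carriers 5 of 6 were positive by ratio (median 0.33) and 3 of 6 in the liver channel (median -0.0070).

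Slc10a1 showed this split between the scales. Its ratio was 4.84, 5.09, 4.92, 4.11 and 4.84 in female UV-Titan livers, against 4.03, 4.32 and 4.39 in female controls. The difference was 0.51 ± 0.24 (SE; unadjusted p = 0.0514). The liver channel read 12.78 ± 0.18 in UV-Titan and 12.93 ± 0.29 in control females (SD, n = 5 and 3), with overlapping values and a difference of -0.16. The reference channel, where the RNA was the same, read 7.53 ± 0.38 on UV-Titan and 8.15 ± 0.17 on control arrays.

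Abcb11 ran the same way. Its ratio was 6.56, 6.74, 6.36, 5.75 and 6.36 in female UV-Titan livers, against 5.61, 6.05 and 5.80 in female controls. The difference was 0.53 ± 0.22 (SE; unadjusted p = 0.0272; limma adjusted p = 0.696). The liver channel differed by 0.15 and the reference channel by -0.35.

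For Slco1b2 the 5 female UV-Titan ratios of 7.90, 8.25, 7.94, 7.87 and 7.87 lay above the 3 control ratios of 7.57, 7.76 and 7.71. The ratio difference was 0.28 ± 0.12 (SE; unadjusted p = 0.0303), while the liver channel differed by 0.03 and the reference channel by -0.22. For all 3 genes the reference channel differed by more than the liver channel did. On each of the 3 slides with both kinds of female the ratio difference was 0.51, 0.53 and 0.08 for Slc10a1, 0.51, 0.56 and 0.13 for Abcb11 and 0.14, 0.23 and 0.29 for Slco1b2. Female control replicate 25, female UV-Titan replicate 16 and male UV-Titan replicate 17, which shared a slide, had the 3 lowest ratios for Slc10a1 and for Abcb11, as the plot of both channels shows.

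**Figure D3:**
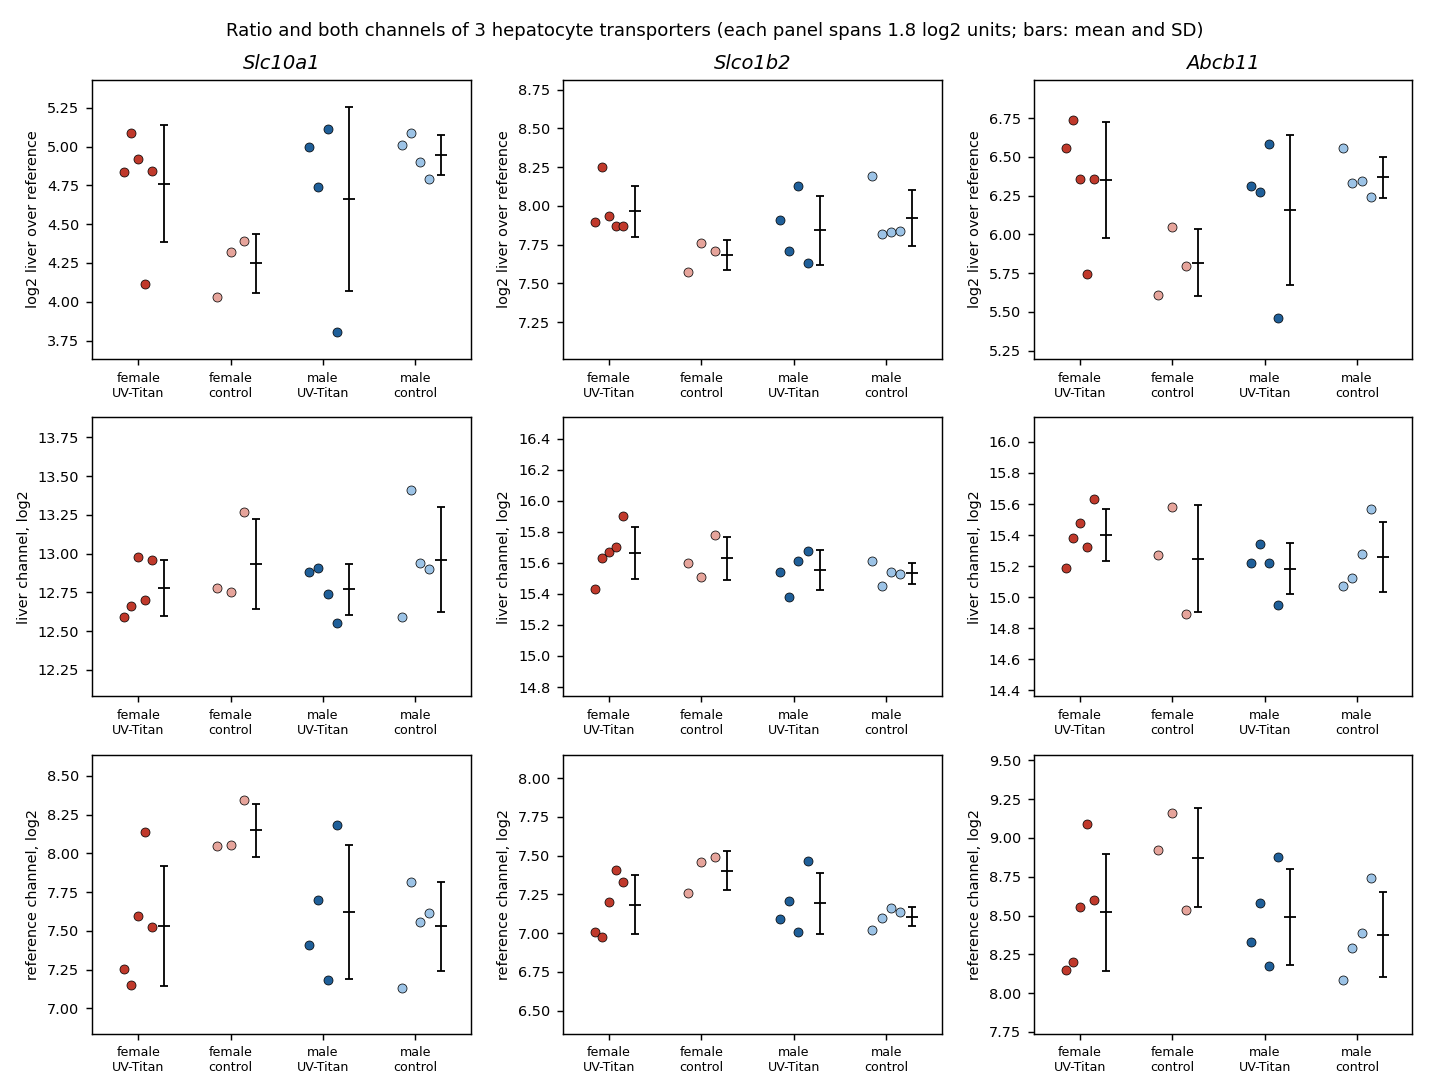
Points are single animals in 4 groups for Slc10a1, Slco1b2 and Abcb11, with the mean and SD beside them, and the vertical axes give the ratio (top), the liver channel (middle) and the reference channel (bottom) in log2 units. The 3 female controls are low by ratio and high in the reference channel for Slc10a1, while the groups overlap in the liver channel.

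For the 20 members with ratios above 1 on all arrays, the ratio difference is given beside that of each channel. The channels were normalized separately, so their differences need not add up to that of the ratio. In females 20 of 20 had a positive ratio difference (median 0.20), against 58.5% of all tested genes whatever their ratio. The share among the 2030 tested genes with ratios above 1 on all arrays was not taken. Whether the 20 differ from those genes was therefore not tested. In the liver channel 13 were positive (median 0.07), and 16 were negative in the reference channel (median -0.057). With each gene centred on its own mean, these 20 averaged -0.411 by ratio in female control replicate 25. The values were -0.0128 and -0.104 in female control replicates 35 and 40. On female UV-Titan arrays they ran from -0.089, in replicate 16 on the slide of replicate 25, to 0.227. Without Abcb1b, whose other 2 probes differed by -0.179 and -0.17 by ratio, the counts were 19 of 19, 12 and 16. The 35 other tested members had medians of 0.07, 0.03 and 0.03 on these scales. Across the 55 members, the correlation of mean liver level with the female difference was -0.496 in the reference channel and 0.0658 in the liver channel, a description across genes that share arrays. In males the correlation was 0.0171 in the reference channel, and 8 of the 20 had a positive ratio difference. Hepatocyte markers moved with these genes in females, with 11 of 11 tested positive by ratio (median 0.55) and 7 of 11 in the liver channel (median 0.03). Their mean ratio ranged from 4.91 to 5.75 on female UV-Titan arrays and from 4.61 to 4.92 on female control arrays. Their mean liver channel signal was 15.4 to 15.7 and 15.4 to 15.5 on these arrays. Whether signals this bright can still show a difference in that channel was not tested. Platelet markers were positive for 7 of 7 on both scales, with medians of 0.55 by ratio and 0.52 for liver alone. All 7 had an unadjusted p below 0.05 by ratio, against 6.68% of all tested genes. Such a p was also reached by 8 of 11 hepatocyte, 5 of 6 endothelial, 4 of 6 red cell precursor and 3 of 6 Kupffer cell markers. Among bile duct markers it was reached by 0 of 6. In males platelet markers were also positive for 7 of 7 on both scales (medians 0.19 and 0.19), with 2 at such a p. Their mean ratio ranged from 2.91 to 3.23 on female UV-Titan arrays and from 2.43 to 2.60 on female control arrays. In females endothelial markers were positive for 6 of 6 on both scales (medians 0.37 and 0.24). Red cell precursor markers (5 of 6, median 0.34) and Kupffer cell markers (5 of 6, median 0.27) were mostly positive by ratio, and 3 of 6 of each were positive for liver alone (medians 0.0085 and -0.031). The part of these cells in the members' differences was not tested.

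**Figure D4:**
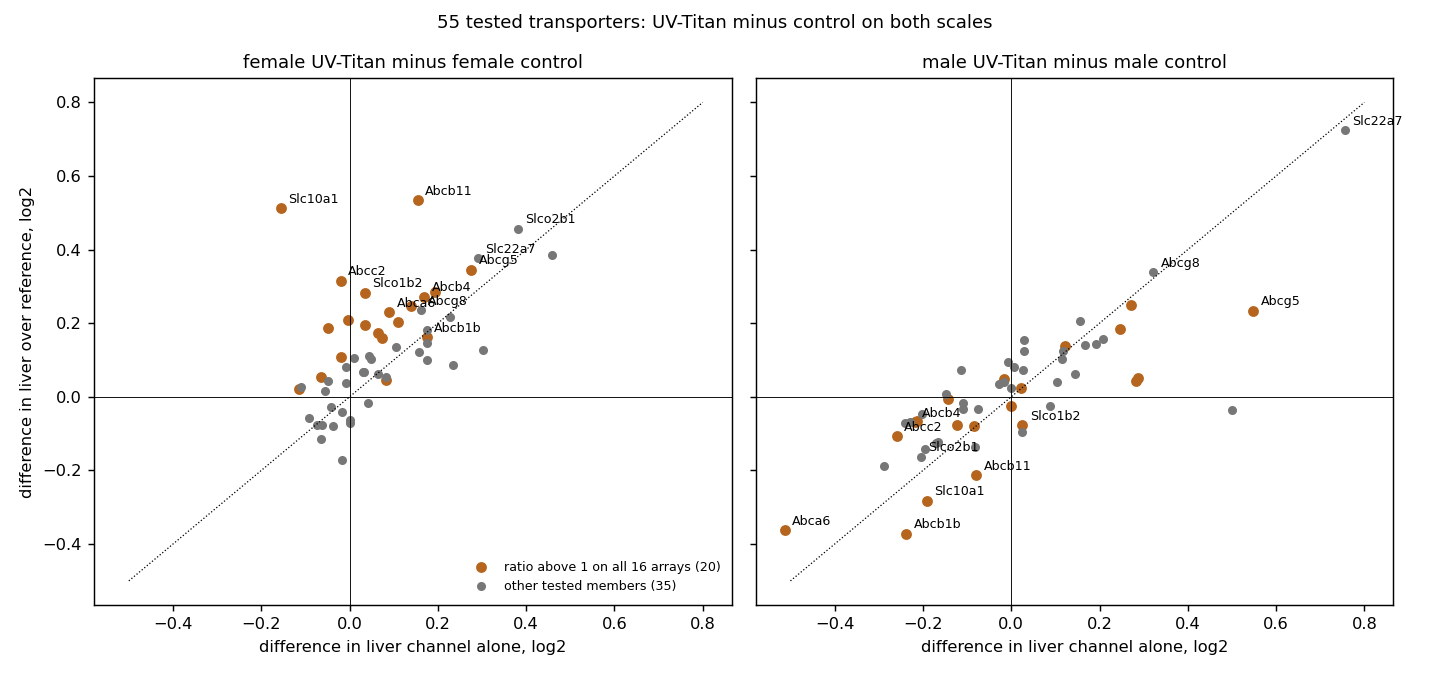
Each point is 1 of 55 tested members, with the UV-Titan minus control difference in the liver channel on the horizontal axis and by ratio on the vertical axis, both in log2 units, for females (left) and males (right). The dotted line marks equal differences, and in females the 20 members with ratios above 1 on all arrays (brown) lie above 0 by ratio, with 13 of them above 0 in the liver channel.

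For Abcc5 and Abca7 the female difference was of like size on both scales. Abcc5, an exporter of cyclic nucleotides, had ratios of -0.15, -0.02, -0.08, -0.12 and -0.17 in UV-Titan females, against -0.26, -0.27 and -0.33 in control females. The groups did not overlap, and the difference was 0.18 ± 0.07 by ratio (SE; unadjusted p = 0.0181; limma adjusted p = 0.694) and 0.18 in the liver channel. The other 2 Abcc5 probes gave 0.11 and -0.056 by ratio. Abca7, a lipid transporter of phagocytes and other cells, differed by 0.22 ± 0.10 by ratio and 0.23 in the liver channel, but by 0.015 by ratio with its second probe, which had liver signal on 3 arrays. All female UV-Titan arrays lay above all female controls for 6 members by ratio (Abca7, Abcc5, Abcg4, Slc10a3, Slc22a13 and Slco1b2), against 3.17% of all tested genes, and below them for 0 members, against 1.03%.

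Among females, the members with the smallest p below 0 had modest values. Abcc8, a subunit of the ATP-sensitive potassium channel, differed by -0.17 ± 0.11 (SE; unadjusted p = 0.131), Slco4a1 by -0.11 ± 0.08, Abca2 by -0.08 ± 0.06 and Slco1a4 by -0.08 ± 0.08 by ratio.

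In males, 3 members had an unadjusted p below 0.05 by ratio, against 4.95% of all tested genes, and 5 in the liver channel (Slc22a7, Abcg5, Abcg8, Abcb8 and Abcb4), against 3.21%. The UV-Titan mean was higher for 28 of 55 members by ratio, against 56.7% of all tested genes, and for 25 in the liver channel, against 50.5%. With median centring the count was 14, but the median of all tested genes was then -0.089, and 26 members lay above it. The members' median difference was 0.01 by ratio and -0.0067 in the liver channel. All male UV-Titan arrays lay above all male controls for 3 members (Slc22a7, Abcg8 and Slco4a1), against 1.92%, and below for 0, against 1.08%.

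Slc22a7 had the largest male difference. Its ratio was 1.64, 1.84, 1.5 and 1.63 in male UV-Titan livers, against 0.89, 0.35, 1.31 and 1.16 in male controls. The lowest UV-Titan male lay above the highest control male, and the difference was 0.72 ± 0.22 by ratio (SE; unadjusted p = 0.00455; limma adjusted p = 0.951) and 0.76 ± 0.26 in the liver channel. The reference channel differed by 0.03. On each of the 3 slides with both kinds of male the ratio difference was 0.53, 0.61 and 0.48. Without male control replicate 33, the animal with the lowest value, it was 0.53.

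In females Slc22a7 was 1.75, 1.35, 1.47, 1.65 and 0.86 with UV-Titan, against 1.12, 0.54 and 1.46 in controls. These groups overlapped, and the difference was 0.38 ± 0.23 (SE; unadjusted p = 0.117). Over both sexes Slc22a7 had the smallest p of all members, with a difference of 0.55 ± 0.16 (SE; unadjusted p = 0.00305; limma adjusted p = 0.418), and the effect did not differ detectably between the sexes (-0.35 ± 0.32, female minus male; unadjusted p = 0.288). Male control replicates 31 and 33 carried transcripts of the exocrine pancreas (mean ratio of 7 markers up to 3.33, against at most 1.28 on arrays of the other groups) and male UV-Titan replicate 5 those of skeletal muscle (5 markers, 1.94). With these 3 arrays left out the Slc22a7 difference in males was 0.47.

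The sterol pump genes Abcg5 and Abcg8 ran alongside. Abcg8 ratios were 1.617, 1.496, 1.553 and 1.607 in male UV-Titan livers, against 1.211, 1.037, 1.182 and 1.487 in male controls, groups that did not overlap but whose closest values were 1.496 and 1.487. The difference was 0.34 ± 0.17 by ratio (SE; unadjusted p = 0.0564) and 0.32 ± 0.14 in the liver channel. A second Abcg8 probe gave 0.03 by ratio in males. Abcg5 ratios were 5.00, 5.09, 5.17 and 4.74 in male UV-Titan livers, against 5.16, 4.38, 4.64 and 4.88 in male controls, with overlap. Its difference was 0.23 ± 0.17 by ratio and 0.55 in the liver channel, and the reference channel differed by 0.33.

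In females Abcg5 was 4.88, 5.38, 5.15, 4.86 and 4.78 with UV-Titan, against 4.42, 4.96 and 4.62 in controls, a difference of 0.35 ± 0.17 (SE). Over both sexes Abcg5 and Abcg8 each differed by 0.29 ± 0.12 by ratio (SE; unadjusted p = 0.0280 and 0.0277), and by 0.41 and 0.24 in the liver channel, with 0.15 and 0.02 in the reference channel. Within slides the Abcg8 difference was -0.35, 0.45 and 0.85 in females and 0.31, 0.34 and 0.13 in males.

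Abcb10 and Slco4a1 were the other male members with a small p. Abcb10 had 3.31, 3.43, 3.69 and 3.45 in male UV-Titan livers, against 3.13, 3.22, 3.40 and 3.15 in male controls. The groups overlapped, and the difference was 0.25 ± 0.11 (SE; unadjusted p = 0.0354), against 0.05 by its second probe. Slco4a1 had -1.69, -1.91, -1.82 and -1.76 in male UV-Titan livers, against -2.06, -2.0, -1.98 and -1.97 in male controls, with a difference of 0.21 ± 0.08 (SE; unadjusted p = 0.0193). Below 0 in males were Abcb1b at -0.37 ± 0.22, Abcc4 at -0.12 ± 0.07, Slc22a5 at -0.13 ± 0.08 and Slco1a5 at -0.14 ± 0.09 by ratio, with unadjusted p from 0.109 to 0.143. A second Slco1a5 probe, with liver signal on no array, gave 0.063 in males. Abcb4 differed in males by -0.07 by ratio and by -0.22 in the liver channel.

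**Figure D5:**
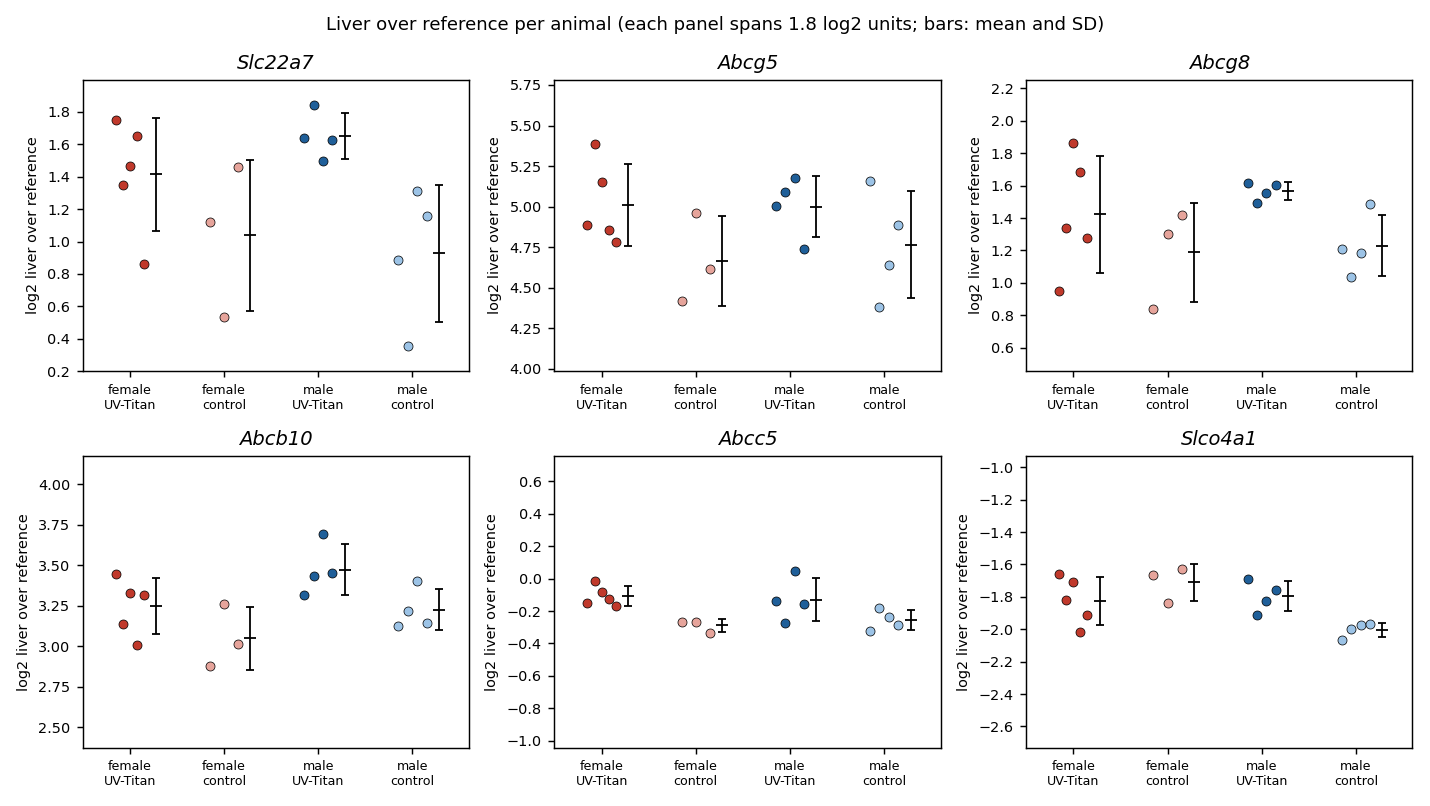
Points are single animals in 4 groups for 6 members, with the mean and SD beside them, and the vertical axes give log2 liver over reference over a span of 1.8 units in each panel. The 4 male UV-Titan livers lie above the 4 male control livers for Slc22a7, Abcg8 and Slco4a1.

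Over both sexes, 7 members had an unadjusted p below 0.05 by ratio, against 7.06% of all tested genes: Slc22a7, Abcc5, Abcb10, Abca7, Abca8a, Abcg8 and Abcg5. All 7 were higher with UV-Titan. In the liver channel there were 5 (Slc22a7, Abcc5, Abcg8, Abcg5 and Abcb8, with Abcb8 lower), against 2.96%. Positive differences numbered 45 of 55 by ratio (38 with Agilent processed signals), against 60.5% of all tested genes, and 34 in the liver channel, against 49.8%. Abcc5 differed by 0.15 ± 0.05 (SE; unadjusted p = 0.00551), Abcb10 by 0.22 ± 0.08, Abca7 by 0.19 ± 0.07 and Abca8a by 0.19 by ratio. Slco1a5 (-0.11 ± 0.07), Slc22a5 (-0.08 ± 0.05), Abcc8 (-0.08 ± 0.08) and Abcb8 (-0.06 ± 0.06) had the smallest p below 0. The Slco1a5 probe used had liver signal on 11 arrays and differed by -0.077 in females and -0.142 in males. A second Slco1a5 probe, with liver signal on no array, gave 0.007 and 0.063.

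The effect of UV-Titan differed between the sexes at an unadjusted p below 0.05 for 5 members by ratio, against 4.26% of all tested genes. In the liver channel there were 2, Abcb4 and Abcb1b, against 2.83%, and none of the 5 was among them. Slc10a1 had 0.79 ± 0.34 (female minus male effect, SE; unadjusted p = 0.0323) by ratio and 0.03 in the liver channel, and 0.51 by ratio without male UV-Titan replicate 17. Abcb11 had 0.75 ± 0.31 and 0.23 on these scales, and Slco1b2 0.36 ± 0.17 and 0.0092. For Abcc4 the values were 0.27 ± 0.10 by ratio and 0.34 for liver alone. Its second probe differed the other way, by -0.089 in females and 0.01 in males, against 0.15 and -0.12 by the first. Slco4a1 had -0.32 ± 0.11 and -0.22. Abca2 (-0.17 ± 0.09), Slco1a4 (-0.18 ± 0.11) and Slc22a17 (-0.20 ± 0.13) were next below 0 by ratio. For Slc22a17 the second probe, with liver signal on 6 arrays, ran the other way. It differed by 0.078 in females and -0.021 in males, against -0.072 and 0.124 by the first.

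Male and female livers were then compared over both exposures, a question raised by transporters that differ between the sexes in adult mice. By limma 0 of 55 members had an adjusted p below 0.05, where 0.0465% of all tested genes did, 9 in number and Xist and Ddx3y among them. An unadjusted p below 0.05 was reached by 5 members by ratio, against 4.3% of all tested genes, and by 2 in the liver channel (Abcg4 and Abca7), against 2.18%. Abcg4, a sterol transporter best known from brain, had 0.23 ± 0.08 (male minus female, SE; unadjusted p = 0.00793) by ratio and 0.31 in the liver channel. Abcb10 had 0.20 ± 0.08, Slc22a4 0.28 ± 0.12, Slc22a6 0.10 ± 0.04 and Slco4a1 -0.13 ± 0.06 by ratio. Abca2 (-0.09 ± 0.04), Abcc4 (-0.11 ± 0.05) and Abcc3 (-0.08 ± 0.05) were next below 0. The difference of Slco1a4 was 0.0047 ± 0.05 by ratio.

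The spread between animals of a group was above that of the median gene for 35 of 55 members and below it for 20 by ratio. The pooled SD within groups had a median of 0.16 by ratio over the 55 members and 0.13 over all tested genes, and 0.20 and 0.17 in the liver channel. The largest were those of Slco2b1 (0.44), Abca6 (0.43), Slc10a1 (0.38) and Slc22a8 (0.37) by ratio. Slco2b1 read 2.37 in male control replicate 33, which carried exocrine pancreas transcripts, and 1.00 to 1.23 in the other 3 male controls. Abca6 ran from 3.59 to 4.78 in male controls and from 3.33 to 4.10 in male UV-Titan livers. Slc22a13, just past the limit with liver signal on 3 arrays, had a liver signal of 8.58 and a reference signal of 7.92 in male UV-Titan replicate 17, against 6.34 to 6.67 and 5.95 to 6.10 on the other 15 arrays.

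The regulators and partners of these transporters gave no call either. Of 19 regulators listed, 18 were tested and 0 had an adjusted p below 0.05 by limma in any comparison. In females 13 of 18 were positive by ratio (median 0.18) and 8 of 18 in the liver channel (median -0.07), and 5 had an unadjusted p below 0.05, all higher, against 6.68% of all tested genes. In males 7 of 18 were positive by ratio (median -0.04) and 0 had such a p, against 4.95%. Over both sexes 13 were positive, with 1 higher and 2 lower at such a p, against 7.06%. In females Nr1i3, the receptor CAR that responds to drugs, differed by 0.29 ± 0.08 by ratio (SE; unadjusted p = 0.00337; limma adjusted p = 0.614) and 0.27 in the liver channel. Also in females, Nr1h3, a sensor of oxysterols, differed by 0.30 ± 0.12 and 0.08 on these scales, and Nr0b2, the repressor SHP induced by bile acids, by 0.69 ± 0.29 and 0.70.

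Of 22 other gene names of bile and drug transport, older names of the same gene included, 20 were tested. Of these, 0 passed the adjusted test in any comparison. In females 17 of 20 were positive by ratio (median 0.09) and 8 of 20 in the liver channel (median -0.02), and 6 had an unadjusted p below 0.05, all higher, against 6.68% of all tested genes. In females Slc27a5, which activates bile acids, differed by 0.39 ± 0.13 by ratio (SE; unadjusted p = 0.00828) and 0.15 in the liver channel. Slc27a2, a related enzyme of fatty acids, differed by 0.44 ± 0.16 and 0.13. Baat, which joins bile acids to taurine, differed by 1.13 ± 0.41 and 0.99. In males 6 of 20 were positive by ratio (median -0.06).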

How the data were processed

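Each of 16 two-colour arrays held 45018 spots, of which 43379 were not controls, with 41174 probes. The deposited scanner files gave spot intensity in both channels, extracted with Agilent Feature Extraction 9.5.3.1 per the file headers. A deposited table of the authors' log2 ratios served as an alternative. The direction of that table followed the scanner files (r of 0.861 to 0.898), its column medians were -0.0449 to -0.0375, and its further processing is not given in the sources used here.

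Mean signals were corrected with normexp (offset 50) and loess-normalized within arrays in limma 3.58.1 (R 4.3.3), with control spots at weight 0 and outlier spots removed. Saturated spots numbered 0. Spots of a probe were averaged, 1 mean was fitted for each group, and p-values were adjusted by Benjamini-Hochberg over 19360 genes. The channels alone were quantile-normalized. Correlations were tested by permutation in scipy 1.17.1. Where a channel was at background on all arrays, a fold is given as a bound, from the mean over the lowest signal above background.

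Members and lists were chosen with earlier results of these data known. Named genes were a panel of known liver transporters, the 4 smallest p in each direction of each comparison, the 6 highest and 4 lowest ratios, the 4 largest spreads, members of other organs and genomic neighbours. Slc22a13, Slc22a20 and members named only in a count were added after their values were seen. Probe positions are those of mm7 in the files. RefSeq windows before a start site were found by name for 63 of 78 members. Alternatives covered background, normalization, channel, filter, probe, slide, scan day, array weights and single arrays. Results of 2 panel genes are not reported here.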

Additional observations from a re-analysis of the deposited data

Results flagged for a closer look

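In 8 of 165 groups of 4 or 5 animals, 1 animal lay far from the others by Dixon's criterion on the ratio, where chance gives about 1 in 20 groups, or 8.2. Slc10a1 was 4.11 in female UV-Titan replicate 16, against 4.84 to 5.09 in the other 4. Slco1b2 was 8.25 in female UV-Titan replicate 8, against 7.87 to 7.94, and 8.19 in male control replicate 31, against 7.82 to 7.84. Slc22a18 was 4.44 in female UV-Titan replicate 8, against 3.87 to 4.01. Abcc2 was 4.49 in male control replicate 31, against 4.16 to 4.19. Slco2b1 was 2.37 in male control replicate 33, against 1.00 to 1.23. Abcb8 was -0.322 in male UV-Titan replicate 17, against -0.222 to -0.209, and Abcc3 was 0.258 in male UV-Titan replicate 4, against 0.347 to 0.36. Female UV-Titan replicate 8 and male control replicate 31 lay on the same slide. Male control replicates 31 and 33, with 2 and 1 of these values, also carried transcripts of the exocrine pancreas. The part of that tissue in these values was not tested.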

How the results depend on the processing

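The count of members with an adjusted p below 0.05 was 0 in all 5 comparisons under all 31 alternatives, 16 of which left out 1 array each (range 0 to 0). The reference channel alone, which holds no offspring liver, was among the 31 and enters the ranges below. The count at an unadjusted p below 0.05 ranged from 1 to 11 in females, 0 to 5 in males, 0 to 10 over both sexes, 2 to 9 for the difference and 0 to 9 for sex. The smallest adjusted p of a member over these settings was 0.204 in females (Abcb11), 0.56 in males, 0.246 over both sexes, 0.499 for the difference and 0.628 for sex. Of 24 gene results, the sign turned for 10 in the reference channel alone and for 2 with median centring, Slco4a1 in the difference (0.11) and between the sexes (0.03). Median centring put the median of all tested genes at 0.27 in females, 0.37 in the difference and 0.13 between the sexes. The groups share no replicate numbers, so no pairing by replicate number was possible. Animals could be set against each other by slide, and the slide, as a fixed or random block, changed no call. Female controls numbered 3, and slide and animal cannot be separated for single arrays. Age and litter of the animals are not given in the labels. Probes of a gene disagreed for several genes, among them Abca7, Abcb1b, Abcc4, Abcc5, Abcb10, Abcg8, Slco1a5 and Slc22a17.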

Other observations

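On this array 8 probes of 6 genes carry older names although RefSeq now places them in the Slc10a and Slc22a families, so that the choice by name passed over them. Both probes of Slc22a23, an orphan member of the organic ion carrier family, had high ratios, 3.40 and 3.81, and liver signal on all 16 arrays. Their UV-Titan minus control differences were -0.011 and 0.11 in females and -0.074 and -0.101 in males by ratio. Slc22a30, a rodent member of that family, had 0.259 and 0.854 by its 2 probes. Slc10a7 had 0.016 and Slc22a29 had 0.151. Slc22a26 was above background in liver on 5 arrays and Slc22a22 on 0.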
